A study of Homo sapiens with 10 samples.

Results

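The 10 genes described here encode secreted inflammatory signals: the interleukins IL1A, IL1B, IL6 and IL11, the related cytokine LIF, and the chemokines CXCL1, CXCL2, CXCL3, CXCL8 and CCL20. They are the rows, of 58302 in the deposited expression table, whose symbol equals one of these names, and each name matched a single row. Transcript levels are given as CPM, the share of a library's gene-assigned reads on a common scale. The cells were KYSE-410, an established line from a squamous carcinoma of the human esophagus, and they were treated with either of 2 inhibitors of SHIP2, the lipid phosphatase encoded by INPPL1. The 4 groups were K149 at 2 µM (3 libraries), the DMSO controls of that arm (3 libraries), AS1949490 at 20 µM (2 libraries) and the DMSO controls of that arm (2 libraries). DMSO was at 0.1%, all cells were collected at 48 h, and all groups are the same line. Whether replicate libraries derive from independent cultures is not stated in the labels, and the p-values therefore reflect spread that may be technical.

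As background, IL1A and IL1B are the founding interleukin-1 cytokines; IL1A acts as an alarm signal released from damaged epithelium, and IL1B is cut to its active form by caspase-1. IL6, IL11 and LIF belong to the IL-6 family, whose receptors share the chain gp130, encoded by IL6ST, and signal through JAK kinases and STAT3. CXCL1, CXCL2, CXCL3 and CXCL8 attract neutrophils through the receptors CXCR1 and CXCR2, and CCL20 attracts dendritic cells and lymphocytes that carry CCR6. Genes of this kind are classically switched on by the transcription factors NF-kB and AP-1, and their mRNAs are short-lived through AU-rich elements in the 3′ untranslated region.

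The promoter stretches below show sequence words that some members share beyond their function. Promoters came from RefSeq on GRCh38.p14 (250 bases before to 50 after a start site), with 9 of the 10 members matched by symbol and LIF not among them. They are printed 5′ to 3′ on the strand of the gene, ending at the last base before the start site. Capitals mark the NF-kB word GGAATTTCC or the AP-1 word TGANTCA, searched on both strands. A further NF-kB word was also searched, and its matches are given after the stretches.
CXCL1: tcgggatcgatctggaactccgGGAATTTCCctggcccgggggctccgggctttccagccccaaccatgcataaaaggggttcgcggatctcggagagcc
CXCL2: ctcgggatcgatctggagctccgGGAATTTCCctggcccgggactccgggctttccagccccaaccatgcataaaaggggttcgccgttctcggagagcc
CXCL3: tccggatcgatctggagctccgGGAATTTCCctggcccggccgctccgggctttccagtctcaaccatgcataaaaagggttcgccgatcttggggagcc
CXCL8: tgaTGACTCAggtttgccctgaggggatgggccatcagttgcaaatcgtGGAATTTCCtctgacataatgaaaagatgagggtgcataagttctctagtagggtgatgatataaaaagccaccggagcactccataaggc
IL11: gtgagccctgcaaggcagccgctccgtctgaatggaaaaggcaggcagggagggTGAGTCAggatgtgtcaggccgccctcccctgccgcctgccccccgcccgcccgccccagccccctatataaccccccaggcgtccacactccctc
IL1A: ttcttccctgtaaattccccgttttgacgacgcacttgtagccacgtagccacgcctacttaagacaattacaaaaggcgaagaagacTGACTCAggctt

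On GRCh38.p14 these stretches lie at chr4:73869293-73869392 (CXCL1, plus strand), chr4:74099196-74099295 (CXCL2, minus strand), chr4:74038690-74038789 (CXCL3, minus strand), chr4:73740429-73740568 (CXCL8, plus strand), chr19:55370464-55370613 (IL11, minus strand) and chr2:112784494-112784593 (IL1A, minus strand). The 4 CXCL members lie on chromosome 4, and the word GGAATTTCC begins 78 bases before the start site in CXCL1 and CXCL3, 77 bases before it in CXCL2 and 91 bases before it in CXCL8. That word stood in 0.461% of 35116 promoters. The further NF-kB word stood in 0.0911% of promoters and, among members, in that of IL6 alone, which is not printed. Its first base there lies at -73 from the start site. TGANTCA stood in 7.71% of promoters and, among members, in those of CXCL8, IL11 and IL1A. The 300-base windows of CXCL1 and CXCL3 were 82.5% identical when aligned, those of CXCL1 and CXCL2 71.9% and those of CXCL2 and CXCL3 73.8%, while the 3 shared 45.2% to 47.9% with CXCL8. A match is a description of letters, and no factor binding was measured.

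The 3′ untranslated regions were searched for the AU words. Each of the 10 members held at least 1 ATTTA in its GENCODE 29 transcript, as did 64.0% of 17338 genes with reads and an annotated region. The longer word TTATTTATT stood in 7 members, all but IL1A, IL6 and CCL20, and in 7.3% of those genes. ATTTA was densest in IL6 (13.99 per kb) and CXCL2 (13.87 per kb) and sparsest in LIF (2.19 per kb), against a median of 1.38 per kb over the same genes. LIF was thus nearest to the median of these genes among the members.

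The library totals of CPM carry no read depth, but values fell on whole multiples of about 0.05 CPM. Levels under 1 CPM thus rest on few such steps, which are taken as reads below. INPPL1, the target of the inhibitors, was at 166.3 to 184.8 CPM with K149 and 102.1 to 119.5 CPM in its DMSO libraries, and at 192.2 to 204.7 CPM with AS1949490 and 130.03 to 141.3 CPM in its DMSO libraries. Squamous markers summed to 785.0 to 1063 CPM over the 10 libraries, with TP63 present and KRT5, KRT14 and SOX2 low or near 0, so the squamous label rests on part of its marker list. Of 16 immune markers, CD68, which carcinoma cells can also express, made up most of the sum of 12.99 to 28.5 CPM, and the leukocyte gene PTPRC averaged at most 0.1 CPM in any group. The first 2 principal components of all tested genes held 60.6% and 29% of the variance, and the 2 sets of DMSO libraries stood apart on them.

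Only 4 members averaged more than 1 CPM in each of the 4 groups: IL1A, IL1B, IL11 and LIF, the IL11 libraries of the K149 arm lying as low as 0.999 CPM. CXCL2 and CXCL8 passed 1 CPM in both groups of the AS1949490 arm, CXCL1 in its DMSO controls alone and CXCL3 with AS1949490 alone. IL6 and CCL20 passed it in no group. Summed over the 10 members, the level was 21.1 to 22.8 CPM with K149 and 34.0 to 38.6 CPM in its DMSO controls, and 236.9 and 240.6 CPM with AS1949490 and 412.3 and 459.4 CPM in its DMSO controls. The arms did not overlap in this sum, and within each arm the inhibitor libraries did not overlap their controls. LIF alone averaged 9.91 CPM with K149 and 25.4 CPM in its DMSO controls. It averaged 89.4 CPM with AS1949490 and 265.7 CPM in the DMSO controls of that arm. Its difference in CPM was the largest of any member within each arm.

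**Figure D1:**
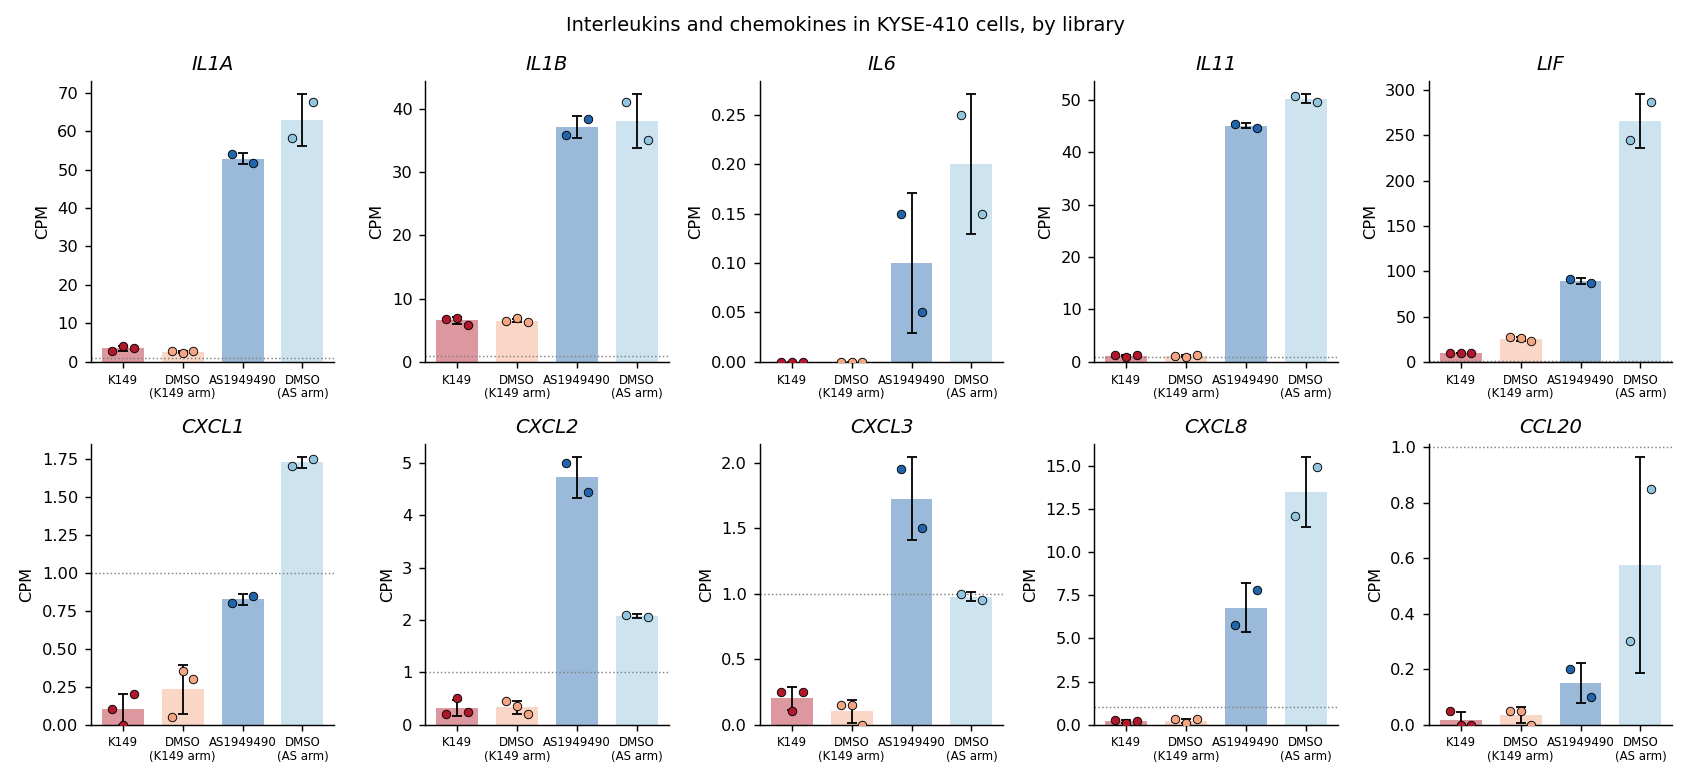
Levels of the 10 members in CPM on linear axes, with bars for group means, error bars for SD and 1 point a library. A line marks 1 CPM, and the groups are set left to right as K149, its DMSO, AS1949490 and its DMSO. LIF was lower in each inhibitor group than in its DMSO group (9.91 against 25.4 CPM, and 89.4 against 265.7 CPM), and all members stood higher in the AS1949490 arm than in the K149 arm.

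Per kb of exon, which allows levels to be compared between genes, LIF led the order with K149 (2.497 CPM per kb), in its DMSO controls (6.40 CPM per kb) and in the AS1949490-arm DMSO controls (66.9 CPM per kb). With AS1949490, IL1A stood first at 24.9 CPM per kb and LIF second at 22.5 CPM per kb, and their libraries did not overlap. In both K149-arm groups the order went on with IL1B, IL1A and IL11, the libraries of IL1B and IL1A overlapping with K149 alone. In both AS1949490-arm groups IL11 stood above IL1B (16.9 against 11.99 CPM per kb with AS1949490, and 18.8 against 12.3 CPM per kb in DMSO), with no overlap. The chemokines and IL6 filled the lower places in every group, the highest chemokine at 0.211 CPM per kb with K149, 0.222 CPM per kb in its DMSO controls, 3.15 CPM per kb with AS1949490 and 5.94 CPM per kb in its DMSO controls. Below IL11 in the K149 arm, most neighbours in the order overlapped.

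**Figure D2:**
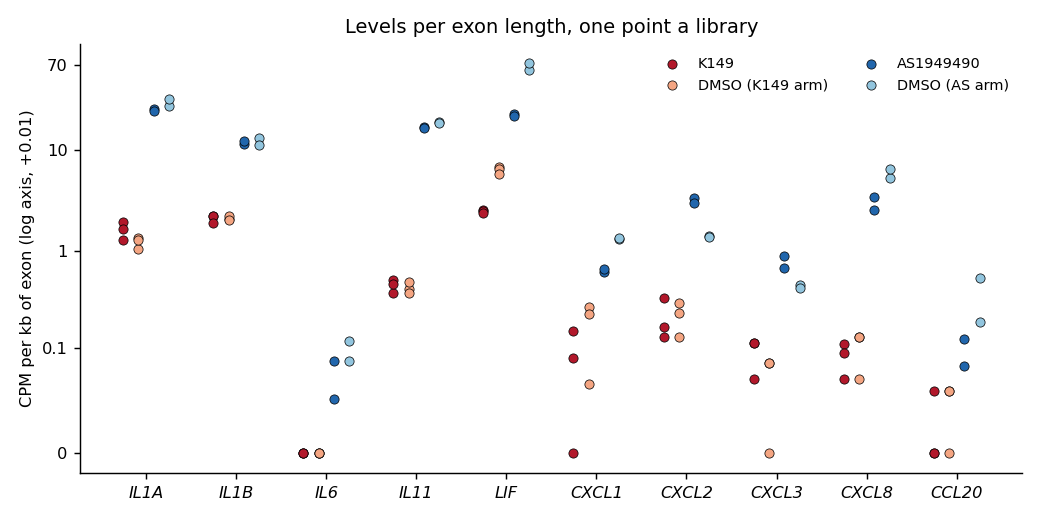
Levels per kb of exon on a log axis (0.01 added), with 1 point a library and the members along the horizontal axis. LIF, IL1A, IL1B and IL11 stand above the chemokines in each group, and IL1A passes LIF in the AS1949490 libraries alone (24.9 against 22.5 CPM per kb).

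Changes were tested with limma on log2(CPM + 1) over the 17837 genes that averaged 1 CPM or more in some group, with p-values adjusted by Benjamini-Hochberg over all of them and a call made at an adjusted p under 0.05. A log2 fold on this scale understates changes of low genes. Log2 folds are given ± SE, and group means in CPM ± SD (n = 3 in each K149-arm group and 2 in each AS1949490-arm group). IL6 and CCL20 did not reach the limit and were not tested. With K149, 2 of the 8 tested members were called, LIF lower and IL1A higher, against 66.4% of all tested genes called (35.8% higher and 30.6% lower). Of these, LIF alone passed a log2 fold of 1 in size, as 8.87% of all genes did. With AS1949490, 5 of the 8 were called, LIF, CXCL1 and CXCL8 lower and CXCL2 and CXCL3 higher, against 51.6% of all genes (32.1% higher and 19.5% lower), and LIF again was the only called member past a log2 fold of 1 in size, as 2.81% of all genes were. The median log2 fold of the 8 was -0.01 with K149 and -0.20 with AS1949490, against 0.04 and 0.08 over all tested genes. The chemokines CXCL1, CXCL2, CXCL3 and CXCL8 entered the test only through the AS1949490 arm, CXCL1 only through its DMSO group and CXCL3 only through AS1949490, so these counts favour a difference there and support nothing about the members as a set.

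**Figure D3:**
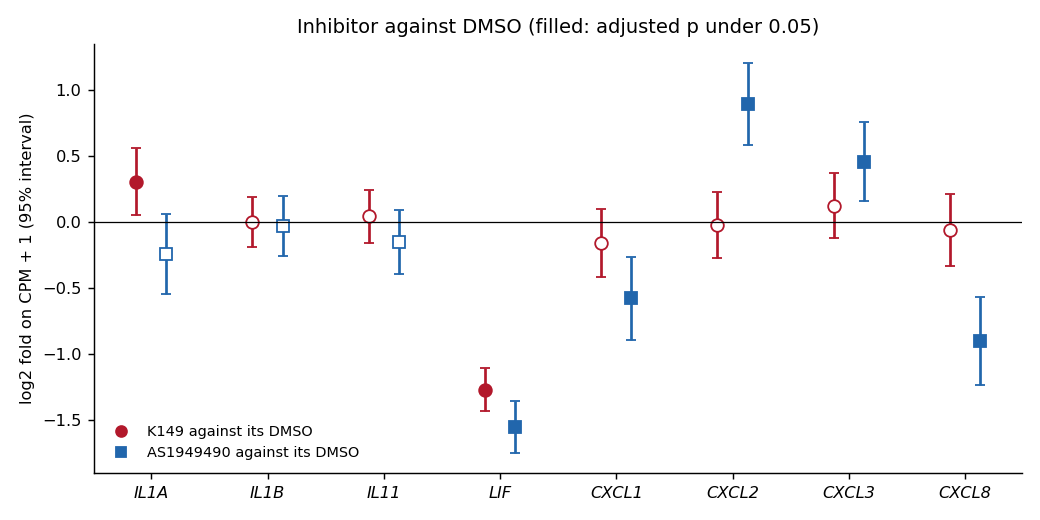
Log2 folds on CPM + 1 of the 8 tested members for K149 against its DMSO and AS1949490 against its DMSO, with 95% intervals and filled symbols for an adjusted p under 0.05 (limma). LIF lies at -1.27 and -1.56, and CXCL2 (0.89) and CXCL8 (-0.90) lie on opposite sides of 0 with AS1949490.

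LIF, which signals through LIFR and gp130 and is known for keeping stem cells undifferentiated, was lower with either inhibitor. It had 10.2, 9.995 and 9.54 CPM with K149, against 27.2, 26.03 and 22.9 CPM in the DMSO controls. It had 91.4 and 87.3 CPM with AS1949490, against 244.9 and 286.4 CPM in the DMSO controls of that arm. In neither arm did the groups overlap. The K149 mean was 0.390 of its control mean (log2 fold -1.27 ± 0.08 SE; limma, adjusted p = 4.35e-09). The AS1949490 mean was 0.336 of its control mean (log2 fold -1.56 ± 0.09; limma, adjusted p = 9.52e-08). Among all 17837 tested genes, 679 had a lower log2 fold with K149 and 15 had a lower one with AS1949490. LIF shares 6.7% of its exon bases with the opposite-strand genes LIF-AS1 and AC004264.1, and the sources used here do not say whether counting used strand.

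The difference between the LIF effects, K149 minus AS1949490, was 0.29 ± 0.12 on the log2 scale (limma, adjusted p = 0.0713, 95% interval 0.03 to 0.54), and its adjusted p ranged from 0.00282 to 0.271 over the alternatives, 7 of 21 of which made it a call (0.0188 without DMSO replicate 1 of the AS1949490 arm). Doses, controls and library numbers differ between the arms, so a difference between effects cannot be told apart from a difference between the arms. In bulk RNA, fewer cells making a transcript and less transcript per cell cannot be told apart either. In these libraries LIF stood 10.5 times higher in the AS1949490-arm DMSO controls than in the K149-arm DMSO controls, the K149 arm being lower by a log2 difference of -3.34 ± 0.08 (limma, adjusted p = 1.84e-12). Even with AS1949490, LIF remained above each of the K149-arm DMSO libraries.

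IL11, a gp130 cytokine linked to fibrosis and epithelial tumours, differed between arms and was called with neither inhibitor. It had 1.35, 0.999 and 1.25 CPM with K149, against 1.10, 0.999 and 1.30 CPM in the DMSO controls, and these overlap. It had 45.5 and 44.7 CPM with AS1949490, against 50.8 and 49.7 CPM in the DMSO controls, without overlap. The log2 folds were 0.04 ± 0.09 with K149 (limma, adjusted p = 0.696, 95% interval -0.16 to 0.24) and -0.15 ± 0.11 with AS1949490 (limma, adjusted p = 0.278, 95% interval -0.40 to 0.09). Between the DMSO groups, the K149 arm was lower by a log2 difference of -4.59 ± 0.10 (limma, adjusted p = 9.7e-13), and no tested gene had a lower one.

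IL6, the founding cytokine of the family, was listed at 0 in all 6 libraries of the K149 arm. It had 0.15 and 0.05 CPM with AS1949490, against 0.25 and 0.15 CPM in the DMSO controls, a few reads at most and overlapping. IL6 is uncertain at any level, since 20.7% of its exon bases are shared with STEAP1B and AC073072.1 on the opposite strand.

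IL1A, the alarm cytokine, rose slightly with K149 by the main test, a call that depended on single libraries. It had 2.75, 4.15 and 3.55 CPM with K149, against 2.85, 2.20 and 2.75 CPM in the DMSO controls, and the lowest K149 library lay below the highest control. It had 53.9 and 51.8 CPM with AS1949490, against 58.1 and 67.6 CPM in the DMSO controls, without overlap. With K149 the log2 fold was 0.31 ± 0.12 (limma, adjusted p = 0.031), a call that 10 of 22 alternatives lost, with adjusted p from 0.00451 to 0.136. It was lost without K149 replicate 2 (0.127), without K149 replicate 3 (0.0737) and without DMSO replicate 2 of that arm (0.136). With AS1949490 the log2 fold was -0.24 ± 0.14 (limma, adjusted p = 0.172, 95% interval -0.55 to 0.07). On the 8 libraries whose steps were taken as reads, edgeR gave -0.44, DESeq2 -0.45 and limma -0.35. There edgeR and DESeq2 made IL1A a call and limma did not. These 8 leave 1 DMSO library in that arm, replicate 2, the higher one for IL1A (67.6 against 58.1 CPM).

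The IL1A effects differed by 0.55 ± 0.18 on the log2 scale, K149 minus AS1949490 (limma, adjusted p = 0.029, range 0.00498 to 0.101 over the alternatives). In that test 3 of the 8 members were called, IL1A and CXCL8 with a positive difference and CXCL2 with a negative one, against 40.4% of all tested genes (15.1% positive and 25.3% negative). No member's difference passed 1 in size, as 6.68% of all genes did. The median difference was 0.24 over the 8 and -0.065 over all genes. The IL1A call was lost, at folds of 0.44 to 0.58, without DMSO replicate 2 of the K149 arm (0.0695), without either AS1949490 library (0.0681 and 0.0967), without DMSO replicate 2 of the AS1949490 arm (0.101), with no filter (0.0863) and with a replicate block (0.0502).

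IL1B, the caspase-1 substrate, was called with neither inhibitor. It had 6.85, 6.95 and 5.89 CPM with K149, against 6.45, 6.90 and 6.30 CPM in the DMSO controls. It had 35.9 and 38.4 CPM with AS1949490, against 41.1 and 35.0 CPM in the DMSO controls. The groups overlapped in both arms. The log2 folds were 0.00 ± 0.09 with K149 (limma, adjusted p = 0.993, 95% interval -0.19 to 0.19) and -0.03 ± 0.11 with AS1949490 (limma, adjusted p = 0.827, 95% interval -0.26 to 0.20). IL1A was 24.2 times and IL1B 5.81 times higher in the AS1949490-arm DMSO controls than in the K149-arm DMSO controls, with log2 differences of -4.15 ± 0.13 and -2.37 ± 0.10 for the K149 arm minus the AS1949490 arm (limma, adjusted p = 1.03e-11 and 1.46e-10). Only 4 of all tested genes had a lower difference than IL1A.

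CXCL8, the chemokine with the highest level per kb in the AS1949490-arm DMSO controls, was lower with AS1949490. It had 5.80 and 7.80 CPM with AS1949490, against 12.1 and 14.9 CPM in the DMSO controls, without overlap. The mean was 0.503 of the control mean (log2 fold -0.90 ± 0.16; limma, adjusted p = 0.000368), and 215 of all tested genes had a lower one. In the K149 arm it had 0.25, 0.10 and 0.20 CPM with K149, against 0.30, 0.10 and 0.30 CPM in the DMSO controls, which overlap at the level of a few reads.

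CXCL1 was lower with AS1949490 and was near 0 in the K149 arm. It had 0.799 and 0.849 CPM with AS1949490, against 1.699 and 1.749 CPM in the DMSO controls, without overlap (log2 fold -0.58 ± 0.15; limma, adjusted p = 0.00515). It had 0.10, 0 and 0.20 CPM with K149, against 0.05, 0.35 and 0.30 CPM in the DMSO controls, with overlap. CXCL1 is uncertain as 5.73% of the 50-base words of its longest transcript also occur in CXCL2 or CXCL3.

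CXCL2 rose with AS1949490. It had 4.996 and 4.45 CPM with AS1949490, against 2.10 and 2.05 CPM in the DMSO controls, without overlap. The mean was 2.28 times that of the controls (log2 fold 0.89 ± 0.14; limma, adjusted p = 0.000208), and 559 of all tested genes had a higher one. DESeq2 on the 8 libraries whose steps were taken as reads, which leave 1 DMSO library in that arm, gave a like fold (1.11) without a call. It had 0.20, 0.50 and 0.25 CPM with K149, against 0.45, 0.35 and 0.20 CPM in the DMSO controls, with overlap.

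CXCL3 had 1.949 and 1.499 CPM with AS1949490, against 0.999 and 0.95 CPM in the DMSO controls, without overlap. The log2 fold was 0.46 ± 0.14 (limma, adjusted p = 0.0136, range 0.00634 to 0.134). The call was lost without AS1949490 replicate 1 (log2 fold 0.34, adjusted p = 0.134), at the limit without DMSO replicate 2 of that arm (0.44, adjusted p = 0.05) and with edgeR on 8 libraries at a larger fold (0.77, adjusted p = 0.122). It had 0.25, 0.10 and 0.25 CPM with K149, against 0.15, 0.15 and 0 CPM in the DMSO controls, with overlap. CXCL2 and CXCL3 also share 50-base words with each other or with CXCL1 (9.24% of the words of CXCL2 and 3.02% of those of CXCL3), so the split of reads among the 3 is uncertain. CXCL1 and CXCL8 on the lower side and CXCL2 and CXCL3 on the higher side all carry the printed GGAATTTCC word. The part of this word in these changes was not tested.

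The chemokine effects of K149 and AS1949490 differed for CXCL8 by 0.84 ± 0.20 (limma, adjusted p = 0.00464) and for CXCL2 by -0.92 ± 0.19 (limma, adjusted p = 0.00153), K149 minus AS1949490 on the log2 scale. On 8 libraries both calls were lost with edgeR and DESeq2 and kept with limma. The folds were of like size, with edgeR 0.78 for CXCL8 and -1.09 for CXCL2 and with DESeq2 0.79 and -1.07. For CXCL1 and CXCL3 the differences were 0.42 ± 0.19 and -0.33 ± 0.18 (limma, adjusted p = 0.0971 and 0.158). With edgeR on 8 libraries these were -0.96 and -0.04 (adjusted p = 0.499 and 0.996), so the CXCL1 difference turned its sign. Levels in the K149 arm were a few reads, and K149 was called for none of these 4 genes. On the scale of log2(CPM + 1) such low levels hold a fold near 0. For CXCL1 the fold with K149 was -0.16 there. On 8 libraries it was -0.23 with limma, against -2.12 with edgeR and -2.26 with DESeq2, none of them called. These 8 leave out K149 replicate 3, at 0.20 CPM the highest K149 library for CXCL1, so the set of libraries changed as well as the scale.

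CCL20, the ligand of CCR6, had 0.20 and 0.10 CPM with AS1949490, against 0.30 and 0.85 CPM in the DMSO controls, without overlap but on few reads. In the K149 arm it had 0.05, 0 and 0 CPM with K149, against 0.05, 0.05 and 0 CPM in the DMSO controls. With the filter on low values removed, its log2 fold with AS1949490 was -0.43 (limma, adjusted p = 0.0353), and with K149 it was -0.02 (limma, adjusted p = 0.957).

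All 8 tested members were lower in the K149-arm DMSO controls than in the AS1949490-arm DMSO controls, against 66.2% of all genes called, 37.1% higher and 29.1% lower. All but CXCL3 passed a log2 difference of 1 in size, as 10.9% of all genes did. The median log2 difference, K149 arm minus AS1949490 arm, was -2.85 over the 8 members and 0.06 over all tested genes. CXCL8 had a log2 difference of -3.55 ± 0.14, with a mean 57.9 times higher in the AS1949490 arm, CXCL2 one of -1.21 ± 0.13, CXCL1 one of -1.15 ± 0.13 and CXCL3 one of -0.85 ± 0.13 (limma, adjusted p = 1.17e-10, 2.52e-06, 5.21e-06 and 5.15e-05). The filter favoured a difference for the 4 chemokines here, since their AS1949490 arm alone brought them into the test. CXCL3 entered through AS1949490 alone, and its DMSO mean in that arm was 0.97 CPM. The K149-arm DMSO means behind these ratios were 0.10 to 0.33 CPM. This comparison uses the same DMSO libraries as the comparisons with the inhibitors. Opposite to the members, the fibroblast marker list was higher in the K149-arm DMSO controls. It summed to 230.4 to 242.7 CPM there and 39.0 to 44.2 CPM in the AS1949490-arm DMSO controls. Nearly all of it was LUM (221.5 and 14.2 CPM) and COL1A1 (10.6 and 25.4 CPM), and COL1A1 was lower in the K149 arm. COL1A2 and COL3A1 averaged at most 0.524 CPM in any group. Immune markers summed to 20.7 to 20.9 CPM in the K149-arm controls and 12.99 to 13.04 CPM in the AS1949490-arm controls, and their part in the difference between arms was not tested. The labels name no passage, date or batch for the arms.

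The lists of pathway partners were chosen with earlier results of these data known, and their counts are given as a description. Of 113 tested genes in 9 lists, 49 rose and 21 fell with K149, where 35.8% of all tested genes rose and 30.6% fell, and 52 rose and 26 fell with AS1949490, where 32.1% rose and 19.5% fell. These shares are the background for each list below. In the IL-6 family list of 20 tested genes, 11 rose and 2 fell with K149 (median 0.31) and 13 rose and 4 fell with AS1949490 (median 0.48). The shared receptor chain IL6ST had 126.0 ± 21.6 CPM with K149, against 62.5 ± 1.14 CPM in DMSO (SD, n = 3 each; log2 fold 0.98 ± 0.16; limma, adjusted p = 9.64e-05). It had 184.3 ± 14.9 CPM with AS1949490, against 93.5 ± 36.8 CPM in DMSO (SD, n = 2 each; log2 fold 1.03 ± 0.19; limma, adjusted p = 0.000719). The receptor of LIF itself, LIFR, was at 24.0 ± 2.70 CPM with K149, against 10.2 ± 0.333 CPM in DMSO, and rose by 1.16 ± 0.11 (limma, adjusted p = 3.69e-07). LIFR also rose with AS1949490, by 0.64 ± 0.13 (limma, adjusted p = 0.00112). The LIF receptor chains were thus higher in both inhibitor groups in which LIF was lower.

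CLCF1, another ligand of the family, fell like LIF. It had 5.95 ± 0.521 CPM with K149, against 16.6 ± 1.21 CPM in DMSO, and 34.3 ± 3.36 CPM with AS1949490, against 74.3 ± 5.14 CPM in DMSO. Its log2 folds were -1.341 ± 0.0857 and -1.095 ± 0.1049 (limma, adjusted p = 9.54e-09 and 3.65e-06). SOCS3, a feedback inhibitor that gp130 cytokines induce through STAT3, fell with AS1949490 to 10.4 ± 0.671 CPM, against 19.5 ± 0.844 CPM in DMSO (log2 fold -0.85 ± 0.10; limma, adjusted p = 2.51e-05). With K149, SOCS3 had 5.28 CPM against 5.08 CPM in DMSO (limma, adjusted p = 0.643), and the effects differed by 0.89 (limma, adjusted p = 0.000155).

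**Figure D4:**
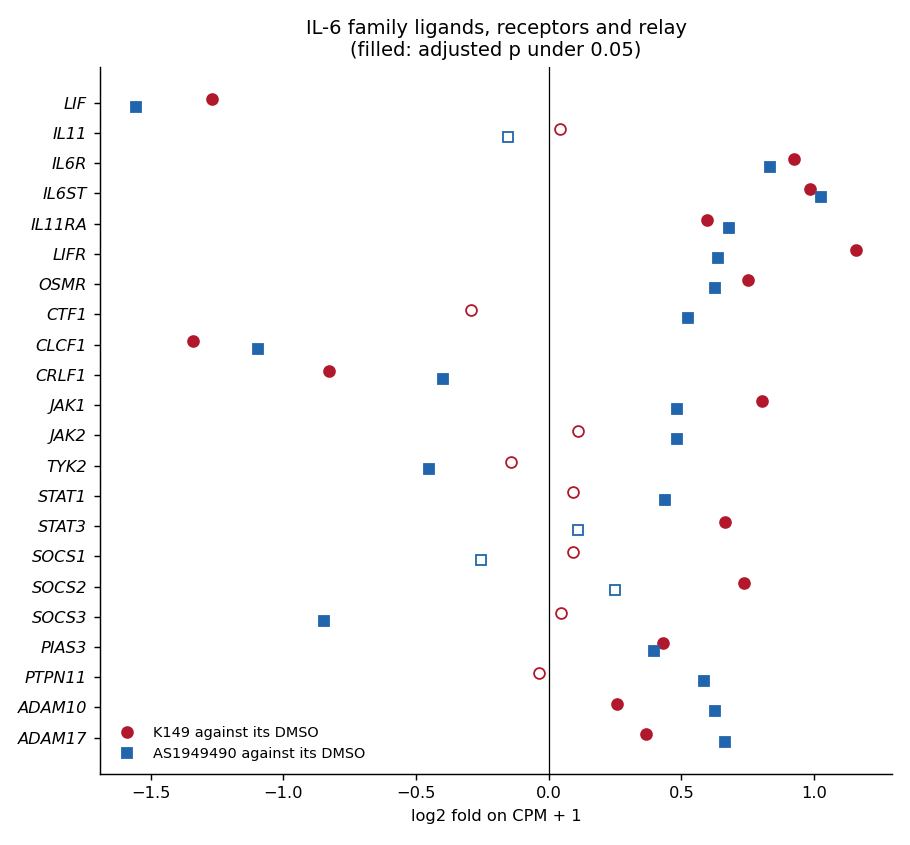
Log2 folds on CPM + 1 of LIF, IL11 and the 20 tested IL-6 family partners for K149 and AS1949490 against their DMSO controls, with filled symbols for an adjusted p under 0.05 (limma). LIF and CLCF1 lie left of 0 and LIFR, IL6ST and OSMR right of 0 for both inhibitors, and SOCS3 is filled for AS1949490 alone (-0.85).

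In the IL-1 family list of 10 tested genes, 6 rose and 2 fell with K149 (median 0.40), and 5 rose and 2 fell with AS1949490 (median 0.33). The signalling receptor IL1R1 had 21.97 ± 2.69 CPM with K149, against 5.08 ± 0.493 CPM in DMSO (log2 fold 1.91 ± 0.10; limma, adjusted p = 9.97e-10). It had 8.82 ± 0.106 CPM with AS1949490, against 3.85 CPM in both DMSO libraries (log2 fold 1.02 ± 0.12; limma, adjusted p = 1.94e-05). The receptor antagonist IL1RN fell with K149 to 16.4 ± 3.09 CPM, against 46.9 ± 0.598 CPM in DMSO (log2 fold -1.47 ± 0.18; limma, adjusted p = 7.59e-06). With AS1949490, IL1RN had 10.4 CPM against 8.39 CPM in DMSO (limma, adjusted p = 0.224). IL36RN, the antagonist of the IL-36 receptor, rose with both (1.13 ± 0.13 and 1.00 ± 0.16; limma, adjusted p = 3.31e-06 and 0.000164) but reached 1 CPM in the inhibitor groups alone, and IL18R1 rose with AS1949490 (0.84 ± 0.12; limma, adjusted p = 6.38e-05).

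Of 12 tested genes for processing and release of IL-1, 5 rose and 2 fell with K149 (median 0.09), and 5 rose and 1 fell with AS1949490 (median 0.14). CASP1, which cuts IL1B, was at 51.9 ± 1.11 CPM with K149, against 93.9 ± 0.802 CPM in DMSO (log2 fold -0.84 ± 0.06; limma, adjusted p = 4.85e-08). It was at 71.0 ± 1.69 CPM with AS1949490, against 52.1 ± 6.77 CPM in DMSO (log2 fold 0.44 ± 0.08; limma, adjusted p = 0.000364). The effects on CASP1 differed by -1.29 (limma, adjusted p = 2.77e-07). Of 14 tested genes of the IL-1 and Toll receptor relay, 4 rose and 2 fell with K149 (median 0.08), and 10 rose and 1 fell with AS1949490 (median 0.275). The kinase IRAK1 fell with both (-0.71 ± 0.05 and -0.45 ± 0.06; limma, adjusted p = 8.84e-09 and 2.46e-05), and the adaptor TAB3 rose with both (0.48 ± 0.12 and 0.83 ± 0.15; limma, adjusted p = 0.00295 and 0.000438).

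Of 21 other chemokine ligands, 4 were tested, of which 1 rose with K149 and 1 rose and 1 fell with AS1949490. CXCL16 rose with both, to 58.0 ± 1.97 CPM with K149, against 34.9 ± 1.04 CPM in DMSO, and to 34.3 ± 1.98 CPM with AS1949490, against 27.7 ± 0.242 CPM in DMSO (limma, adjusted p = 1.14e-07 and 0.00305). MIF fell with AS1949490 (-0.45 ± 0.17; limma, adjusted p = 0.0357) but is uncertain, with 61.9% of its exon bases shared with other genes. The receptors of the member chemokines, CXCR1, CXCR2 and CCR6, averaged at most 0.075 CPM in any group. Of the 4 tested chemokine receptors, ACKR3, a scavenger of CXCL12, moved in opposite directions, with 7.36 ± 0.860 CPM with K149 against 20.4 ± 0.341 CPM in DMSO, and 13.1 ± 0.494 CPM with AS1949490 against 4.52 ± 1.24 CPM in DMSO. Its log2 folds were -1.36 ± 0.11 and 1.37 ± 0.14 (limma, adjusted p = 1.57e-07 and 5.66e-06), and they differed by -2.73 (limma, adjusted p = 5.1e-08). ACKR2 rose with both and CXCR5 with AS1949490, and both are uncertain, sharing 25.2% and 88.6% of exon bases with other genes. ACKR2 also passed the filter through K149 alone, where it averaged 1.68 CPM. ACKR4 rose with K149 (0.70 ± 0.14; limma, adjusted p = 0.000553) and had a log2 fold of 0.41 ± 0.17 with AS1949490 (limma, adjusted p = 0.0555).

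Among 14 tested genes for other cytokines, 7 rose and none fell with K149 (median 0.24), and 6 rose and 2 fell with AS1949490 (median 0.11), where 35.8% and 30.6% of all tested genes did so with K149 and 32.1% and 19.5% with AS1949490. CSF3, the granulocyte colony-stimulating factor, had 3.82 ± 0.177 CPM with AS1949490, against 0.875 ± 0.105 CPM in DMSO (log2 fold 1.36 ± 0.13; limma, adjusted p = 3.52e-06), and passed the filter through AS1949490 alone. With K149 it had 0.30 CPM against 0.35 CPM in DMSO. IL17RC, a receptor chain for IL-17, rose with both (1.54 ± 0.09 and 0.84 ± 0.11; limma, adjusted p = 2.31e-09 and 2.92e-05). VEGFA rose to 204.2 ± 8.94 CPM with AS1949490, against 111.0 ± 2.11 CPM in DMSO, and also rose with K149 (0.87 ± 0.09 with AS1949490 and 0.39 ± 0.07 with K149; limma, adjusted p = 4.68e-06 and 0.00024). TGFA rose with K149 and AS1949490 (0.44 ± 0.07 and 0.55 ± 0.09; limma, adjusted p = 0.000104 and 0.000189). TSLP rose with both (0.58 ± 0.12 and 0.51 ± 0.15; limma, adjusted p = 0.00102 and 0.0129) but passed the filter through the inhibitor groups alone.

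Of 19 factors that bind AU-rich or stem-loop elements or act on such mRNAs, 5 rose and 8 fell with either inhibitor (medians -0.01 with K149 and -0.02 with AS1949490). ZFP36L2, which promotes decay of AU-rich mRNAs, had 80.2 ± 10.8 CPM with K149, against 219.3 ± 2.51 CPM in DMSO, and 32.5 ± 0.636 CPM with AS1949490, against 54.6 ± 3.37 CPM in DMSO. Its log2 folds were -1.45 ± 0.08 and -0.73 ± 0.09 (limma, adjusted p = 1.26e-09 and 3.45e-05). The decay factors KHSRP and HNRNPD fell with K149 (-0.78 ± 0.06 and -1.04 ± 0.05; limma, adjusted p = 3.37e-08 and 6.74e-10) and with AS1949490 (-0.51 ± 0.07 and -0.59 ± 0.06; limma, adjusted p = 5.09e-05 and 8.88e-06). With AS1949490, ZC3H12A, a nuclease that degrades IL6 mRNA, fell to 44.7 ± 3.67 CPM, against 81.2 ± 5.28 CPM in DMSO, and ARID5A, which stabilises IL6 mRNA, fell to 16.6 ± 0.0361 CPM, against 32.0 ± 0.417 CPM in DMSO (limma, adjusted p = 1.59e-05 and 8.59e-05).

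Of 16 tested transcription factors of cytokine genes, 8 rose and 4 fell with K149 (median 0.20), and 4 rose and 7 fell with AS1949490 (median -0.22). The AP-1 member FOSL1 fell with both. It had 13.8 ± 2.04 CPM with K149, against 27.2 ± 1.30 CPM in DMSO, and 118.9 ± 3.89 CPM with AS1949490, against 264.9 ± 15.2 CPM in DMSO. Its log2 folds were -0.94 ± 0.08 and -1.15 ± 0.10 (limma, adjusted p = 3.2e-07 and 2.17e-06). The stress factor ATF3 rose with K149, to 29.7 ± 1.25 CPM, against 6.90 ± 0.265 CPM in DMSO (log2 fold 1.96 ± 0.08; limma, adjusted p = 1.17e-10). ATF3 fell with AS1949490, to 54.6 ± 4.45 CPM, against 94.3 ± 14.9 CPM in DMSO (log2 fold -0.77 ± 0.10; limma, adjusted p = 4.2e-05), and its effects differed by 2.73 (limma, adjusted p = 1.92e-09). BCL3, an NF-kB cofactor, fell with AS1949490 (-1.03 ± 0.13; limma, adjusted p = 2.7e-05), and CEBPA rose with AS1949490 and K149 (1.00 ± 0.12 and 0.52 ± 0.10; limma, adjusted p = 1.96e-05 and 0.000345) but is uncertain, with 43.4% of its exon bases shared.

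The genes whose levels were most like those of LIF were ranked by Pearson's r of log2(CPM + 1) over the 10 libraries among 13029 genes with a mean of at least 5 CPM, as a description with no test, since the libraries fall into 4 groups. This r takes in the difference between the arms as well as the changes with the inhibitors. Among the 5 highest by r were the transcription factor ETS1 (r = 0.9996), CD3EAP (0.999), the adhesion adaptor PXN (0.9975) and POLG (0.9943). ETS1 averaged 34.1 ± 0.904 CPM with K149, 61.6 ± 2.84 CPM in its DMSO controls, 136.3 ± 0.0721 CPM with AS1949490 and 266.3 ± 23.0 CPM in its DMSO controls, the same order of groups as LIF. CD3EAP is uncertain, with 45.1% of its exon bases shared with PPP1R13L and ERCC1. For IL1A the genes were PLAUR (r = 0.9957), the receptor of urokinase, TMEM200A (0.9953), PCBP4 (0.995), the actin crosslinker FLNA (0.9942) and AC008687.6 (0.9932). PLAUR averaged 25.98 ± 3.28 CPM with K149, 21.9 ± 1.25 CPM in its DMSO controls, 122.7 ± 7.03 CPM with AS1949490 and 151.0 ± 8.41 CPM in its DMSO controls.

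**Figure D5:**
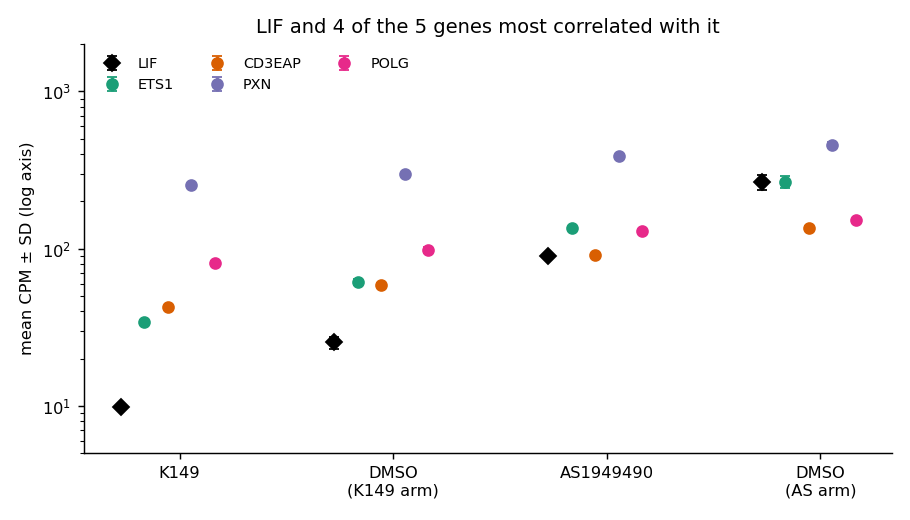
Mean CPM ± SD on a log axis of LIF and 4 of the 5 genes whose levels correlated most with it over 10 libraries, by group. Each of the 5 genes shown is higher in each group than in the one left of it, LIF over the widest range (9.91 to 265.7 CPM).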

How the data were processed

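The authors deposited 1 table of CPM for 58302 Ensembl gene IDs in 10 libraries of KYSE-410 cells. Per the labels' protocols, column-purified, DNase-treated RNA went into Ovation Solo libraries. STAR 2.5.3a and HTSeq, on hg38, are named per the submitters' processing notes. For the HTSeq version, the annotation and the strand setting, nothing is stated (not given in the sources used here). Positions, exon lengths and overlaps came from GENCODE 29 (58039 IDs matched, 263 not), and promoters from RefSeq. The members and gene lists were chosen with earlier results of these data known.

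The main test was limma 3.58.1 (R 4.3.3), with moderated variances that follow the mean, on log2(CPM + 1) with 4 group means in 1 fit and a filter of a group mean of 1 CPM. Named are the 10 members, up to 3 called genes of largest fold per list and comparison, and the 5 genes most like LIF and IL1A, of which 1 for LIF is not reported here. In all libraries 98.69% to 100.0% of values lay within 0.05 of a whole step. In 8 the lowest step was filled and steps were taken as whole reads, on which edgeR 4.0.16 and DESeq2 1.42.0 were run as alternatives. Left out there were K149 replicate 3 and, in the AS1949490 arm, DMSO replicate 1, where no gene lay on the lowest step. The step fixes no true depth, so no counting interval is given. With steps taken as reads in all 10 libraries, replicates of a group differed by a chi-square per degree of freedom of 1.32 to 9.01. Without a true depth this cannot be set against sampling noise. The fitting procedure was tested on simulated data. DMSO replicate 3, whose title gives no arm, was placed in the K149 arm by its library name. Alternatives were other pseudocounts, filters, scalings, the replicate block and leaving out each library.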

Additional observations from a re-analysis of the deposited data

Results flagged for a closer look

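For 3 members the effects of the inhibitors on the log2(CPM + 1) scale, each against its own DMSO libraries, differed by limma's test of the difference, K149 effect minus AS1949490 effect. The difference was 0.55 for IL1A, -0.92 for CXCL2 and 0.84 for CXCL8. The IL1A call was lost in 6 of 21 alternatives. On 8 libraries the CXCL2 and CXCL8 calls were lost with edgeR and DESeq2 and kept with limma. CXCL2 and CXCL8 passed the filter through the AS1949490 arm alone. For CXCL2 and CXCL8 the K149-arm libraries lay between 0.10 and 0.50 CPM, and the part that this low level has in the difference was not tested.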

How the results depend on the processing

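LIF kept its direction and its call with K149 (log2 fold -1.37 to -1.02) and AS1949490 (-1.78 to -1.44) under all 22 alternatives run for each. With K149, the 2 member calls became 1 with a pseudocount of 5 CPM, no filter, TMM scaling, the compared groups alone, edgeR, DESeq2 and, added after seeing the data, limma on 8 libraries (1 to 2 without 1 library); the lost call was that of IL1A. With AS1949490, 5 calls became 2 with a filter at 5 CPM and 3 with DESeq2 (4 to 5 without 1 library). The difference of effects gave 5 calls in place of 3 with a pseudocount of 5 CPM (2 to 4 without 1 library), and the DMSO comparison 5 in place of 8 with a filter at 5 CPM, which removes low chemokines. Over all genes, DESeq2 called 5452 in place of 9205 with AS1949490 and 4488 in place of 7207 for the difference. Folds with no call changed sign: with K149, IL1B with TMM (-0.0395), median-ratio scaling (-0.0292) and without 1 library (-0.0363 to 0.0661), IL11 without 1 library (-0.0057 to 0.1107), and CXCL2 with edgeR (0.0331), DESeq2 (0.0407), limma on 8 libraries (0.0133) and without 1 library (-0.1182 to 0.0428); with AS1949490, IL1B with edgeR (0.0019), limma on 8 libraries (0.0807) and without 1 library (-0.1427 to 0.0807); for the difference, IL1B with limma on 8 libraries (-0.0145) and without 1 library (-0.0798 to 0.1436), and CXCL1 with edgeR (-0.9628). The cause was not tested. Replicate numbers did not pair the libraries (same-number correlations 0.124, 0.061 and -0.026 in the K149 arm); with the replicate block, the member calls were 2, 5 and 2 for K149, AS1949490 and their difference, and the calls over all genes 11479, 8579 and 6408. With the numbers crossed in the AS1949490 arm, a choice made after seeing the data, the member calls were 2, 5 and 4. Same-numbered libraries of that arm correlated at -0.326, and with 2 libraries a group the crossing only turns that sign. Library names there carry other numbers than the titles used here. The only number that names of both groups share joins libraries that the titles also number alike, so the crossing does not follow the names. DESeq2 gave no adjusted p for some low chemokines, which are left out. Levels under 1 CPM rest on about 20 steps or fewer, and 2 libraries a group limit the AS1949490 arm.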
